A study of Mus musculus with 17 samples.

Results

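The genes described here are 48 genes of the extracellular matrix, taken by symbol from a list and compared over cortical and thalamic astrocytes of the early postnatal mouse. The list was chosen with earlier results of these data known. All 48 are among the 26556 genes listed in the count files. They fall into 7 groups by role: 9 genes of the hyaluronan and lectican matrix, 7 laminin chains, 7 other basement membrane genes, 7 fibrillar and associated collagens, 6 fibronectin and elastic fibre genes, 3 small leucine-rich proteoglycans, and 9 matrix proteases and inhibitors. RNA was sequenced from *Gfap::GFP* mice of strain FVB at postnatal day 7, in which the *Gfap* promoter drives green fluorescent protein so that astrocytes can be purified by fluorescence-activated cell sorting. There were 4 groups of libraries, 4 from the primary somatosensory cortex (Cortex), 5 from the dorsolateral geniculate nucleus (dLG), 4 from the ventral posteromedial nucleus (VPM), and 4 from the ventral division of the medial geniculate nucleus (MGv), and all groups share genotype, strain, and age. Each library was made from 4 pooled brains, so that differences between single animals are not seen, and the sources used here do not state whether pools of different regions came from the same brains. The p-values below measure the spread between these pools. In the comparison of all thalamic libraries with the cortex, that spread also holds the differences between nuclei.

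The extracellular matrix of the brain has little of the fibrillar collagen that fills other tissues. It is built on hyaluronan, a sugar chain made at the cell membrane, to which the lectican proteoglycans bind through link proteins and which tenascins crosslink, and in its densest form it makes perineuronal nets around neurons. Basement membranes, sheets of laminin, type IV collagen, nidogen, and perlecan, line the blood vessels and the brain surface, where astrocyte endfeet adjoin them. Metalloproteinases, ADAMTS proteases, and serine proteases cut these components, and tissue inhibitors of metalloproteinases (TIMPs) hold part of that activity back.

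Library totals lay between 18213687 and 50366363 counts, with Cortex a the highest and the next at 21519981, and between 17749 (dLG c) and 23365 genes were detected. Levels are given as CPM, counts scaled to a common library size with edgeR's TMM factors, and 3 counts, the floor used here, correspond to between 0.0648 and 0.167 CPM (counting error only). Astrocyte markers were present in every library, *Aqp4* between 872 and 3046 CPM and *Slc1a3* between 1174 and 5615 CPM. The summed level of 10 astrocyte markers ranged from 12969 to 13964 CPM in the cortex and from 7913 to 9451 CPM in the dLG. It ranged from 6754 to 9272 CPM in the VPM and from 6383 to 15682.5 CPM in the MGv. In the comparison with the cortex below, 3 of the 10 were called lower and 1 higher in the thalamus. Their part in the matrix values was not tested. *Gfap*, whose promoter drives the reporter, ranged from 450 to 537 CPM among cortical libraries, from 78.2 to 1308 CPM in the dLG, from 36.1 to 5519 CPM in the MGv, and from 8.98 to 19.2 CPM in the VPM. Markers of oligodendrocyte precursors were high in all libraries as well, with *Pdgfra* between 782 and 1328 CPM, so that the sorted cells held RNA of that lineage too. The summed level of 6 oligodendrocyte markers lay between 1285 and 5734 CPM over all libraries. That of 11 neuronal markers lay between 446 and 1627 CPM, and 3 of the 11 were called higher and 1 lower in the thalamus than in the cortex. The summed level of 10 endothelial markers lay between 6.83 and 29.4 CPM in all libraries but dLG a, with 63.8 CPM, of which *Cldn5* made 21.7 CPM. Of 12 markers of leptomeningeal and perivascular fibroblasts, 9 are listed, and *Slc13a3*, *Ranbp3l*, and *Foxd1* carried most of their summed level, while *Slc6a13* reached at most 2.55 CPM and *Osr1* at most 0.24 CPM. In sorted pools of this kind, fewer cells of a type and less RNA per cell cannot be told apart.

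Stretches of sequence upstream of annotated exons are shown for *Nid1*, *Htra1*, and *Tnc*, because these are the genes on which the comparisons between regions and between nuclei turn. They were chosen after their values were seen. Each is the part of the RefSeq promoter window (build GRCm38.p6) that lies before the annotated exons, written 5′ to 3′ on the strand of the gene. Capitals mark a GC box (GGGCGG or, on the other strand, CCGCCC) or a TATA box (TATAAA). The stretch of *Nid1* is chr13:13437352-13437550 on the plus strand, that of *Htra1* is chr7:130935953-130936110 on the plus strand, and that of *Tnc* is chr4:64047016-64047265 on the minus strand.
Nid1: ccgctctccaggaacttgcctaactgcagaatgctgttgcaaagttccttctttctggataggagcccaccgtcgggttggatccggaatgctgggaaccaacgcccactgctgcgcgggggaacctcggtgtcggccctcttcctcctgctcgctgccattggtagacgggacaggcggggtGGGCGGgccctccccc
Htra1: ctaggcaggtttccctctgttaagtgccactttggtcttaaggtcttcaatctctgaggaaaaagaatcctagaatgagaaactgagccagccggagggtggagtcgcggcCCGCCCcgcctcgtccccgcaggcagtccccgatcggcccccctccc
Tnc: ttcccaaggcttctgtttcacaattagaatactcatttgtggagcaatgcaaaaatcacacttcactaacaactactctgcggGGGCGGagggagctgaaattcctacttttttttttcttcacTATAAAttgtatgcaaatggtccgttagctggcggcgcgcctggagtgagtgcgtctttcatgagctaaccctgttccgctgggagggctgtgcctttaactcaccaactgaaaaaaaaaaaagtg
The stretch of *Tnc* holds 1 TATA box and 1 GC box, and those of *Nid1* and *Htra1* hold 1 GC box and no TATA box. In whole promoter windows of 300 bases, searched on both strands, 33 of the 48 genes had an entry, of which 27 (81.8%) held a GC box and 4 (12.1%) a TATA box, *Adamts1*, *Col3a1*, *Ncan*, and *Tnc*. Of all 32851 promoter windows, 35.7% held the GC box and 13.6% the TATA box. These shares count single windows, while a gene of the 33 was counted if any of its windows held the box. The shares are thus in different units. A match of these letters is a description of the window and not a site.

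The highest levels per length belonged to 2 lecticans and a protease. As the mean of the 4 group means, *Bcan*, the brevican core protein and a major lectican of glia, reached 892 CPM per kilobase of exon. *Htra1*, a secreted serine protease, reached 275 CPM per kilobase, and *Ncan*, the neurocan core protein, 231 CPM per kilobase. *Bcan* (chr3:87987531-88000230) had levels of 4074, 3974, 3773, and 4691 CPM in cortical libraries, 3104, 3564, 3858, 3642, and 2786 CPM in the dLG, 3011, 3195, 3579, and 3359 CPM in the VPM, and 2909, 4003, 4307, and 3576 CPM in the MGv. The VPM libraries lay below all cortical ones and the other groups overlapped, and its adjusted p lay between 0.156 and 0.953 over the comparisons below. Among the other roles the highest level per length was 10.9 CPM per kilobase for the laminin chain *Lamb2*, 26.4 for agrin (*Agrn*), which clusters acetylcholine receptors at the neuromuscular junction, 10.2 for *Col16a1*, 5.79 for fibulin 2 (*Fbln2*), and 2.17 for biglycan (*Bgn*). Some genes of fibroblast matrix were low: *Lum* reached at most 0.846 CPM, *Col3a1* 1.22 CPM, and *Col1a1* 1.86 CPM in any library. Others were not: *Col1a2* lay between 8.77 and 29.1 CPM over all libraries, and *Dcn* reached 10.02 CPM and *Bgn* 43.9 CPM in their highest library.

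To ask which matrix genes differ between thalamic and cortical astrocytes, the 13 thalamic libraries were compared with the 4 cortical ones. Of the 48 genes, 46 had enough counts to be tested, all but *Hapln2*, a link protein of myelinated axons with at most 0.673 CPM, and *Lum*, lumican. Higher in the thalamus were 4 (8.70% of those tested, against 5.45% of all 17856 genes) and higher in the cortex were 6 (13.0%, against 5.93% of all genes), at a Benjamini-Hochberg adjusted p under 0.1 over all genes (edgeR's quasi-likelihood test). The median log2 fold change (log2FC) of the 46 was -0.01, close to that of all genes, 0.02. The count of 4 came to 2 without Cortex a, b, or d. The count of 6 came to 12 when the mean of the nuclei was taken from the fit of 4 groups. That fit has each nucleus as a group and keeps the differences between nuclei out of the spread. The cause of the change in count was not tested. Basement membrane genes were called on both sides.

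**Figure D1:**
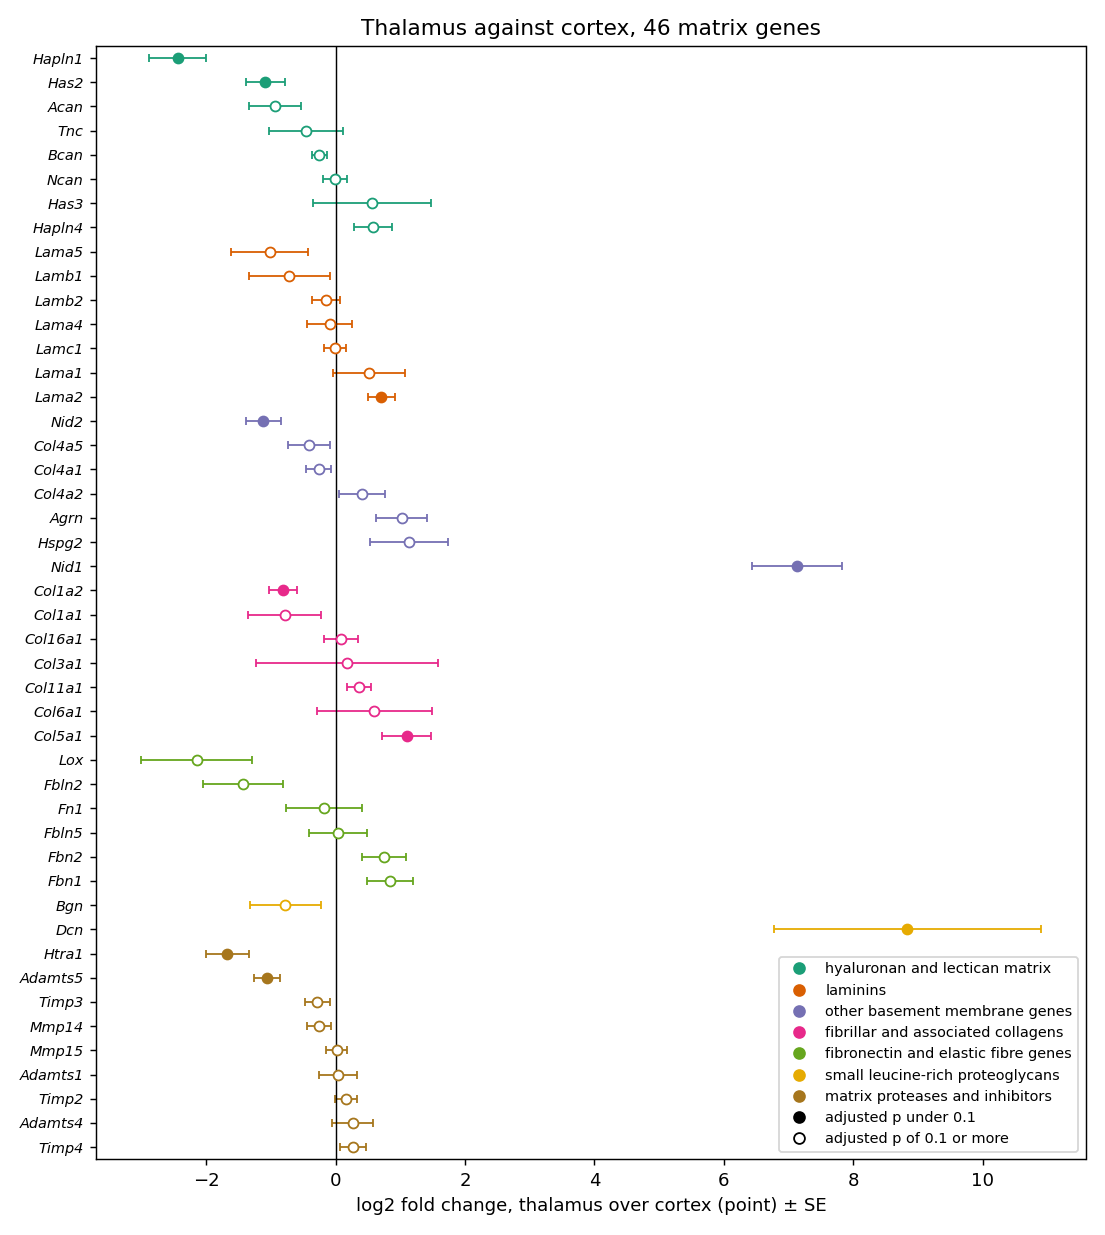
Log2 fold change of thalamus over cortex with its standard error (SE) for the 46 matrix genes tested, grouped and coloured by role, with filled points at an adjusted p under 0.1. *Nid1* lies at 7.12 and *Dcn* at 8.84, a fitted value that depends on the prior count since all cortical libraries have 0 counts, and the other genes lie between -2.44 and 1.14.

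*Nid1* (chr13:13437551-13512269, plus strand) encodes nidogen 1, which links laminin to type IV collagen in the basement membrane, and is the gene of the first stretch above. Its levels in the cortex were 0.453, 1.03, 0.940, and 1.11 CPM, from 19 to 23 counts a library. In the thalamus its lowest level was 40.2 CPM, its median 81.2 CPM, and its highest 270 CPM. Every thalamic library lay above every cortical one, and the log2FC was 7.12 ± 0.70 (SE), with an adjusted p of 8.0e-07. It was called under all 26 settings tried, with a log2FC between 6.59 and 7.45. Its relative *Nid2* (chr14:19751265-19811787), the other nidogen, went the other way. *Nid2* had levels of 9.74, 17.7, 16.2, and 18.6 CPM in the cortex and a lowest, median, and highest level of 2.58, 7.02, and 11.1 CPM in the thalamus. The groups overlapped through Cortex a, and the log2FC was -1.12 ± 0.27 (adjusted p = 0.0131). Exons of *Rtraf* on the opposite strand overlap 8.45% of its exonic length. The summed endothelial markers ranged from 7.67 to 13.5 CPM among cortical libraries and from 6.83 to 63.8 CPM among thalamic ones, and their part in the *Nid1* values was not tested. Of the basement membrane genes that were not called, *Agrn* had a log2FC of 1.02 ± 0.39 (adjusted p = 0.125) and *Hspg2* of 1.14 ± 0.61 (adjusted p = 0.295).

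Decorin (*Dcn*, chr10:97479609-97518143) is a small leucine-rich proteoglycan that binds collagen fibrils and growth factors. It had 0 counts in all 4 cortical libraries, and in the thalamus its lowest, median, and highest levels were 0.047, 1.08, and 10.02 CPM. Taken against 3 counts in the shallowest of the cortical libraries, the thalamic mean of 2.60 CPM was at least 17.5-fold higher. That mean holds unlike nuclei, with means of 1.98 CPM in the dLG, 0.489 CPM in the VPM, and 5.47 CPM in the MGv. The adjusted p of 0.0117 belongs to the fitted log2FC of 8.84 ± 2.06 and not to this bound. The counts were 5 or fewer in MGv a and VPM a and b, and dLG c had 1 count, so that the ranges nearly touch at the floor. Of the 5 fibroblast markers tested, *Foxd1* and *Aldh1a2* were higher in the thalamus (log2FC 7.12 and 4.91), *Ranbp3l* was higher in the cortex (log2FC -2.40), and *Slc13a3* and *Foxc1* were not called. The summed level of that list ranged from 113 to 130 CPM in the cortex, 52.6 to 74.4 CPM in the dLG, 132 to 201 CPM in the VPM, and 36.0 to 56.1 CPM in the MGv, and its part in the *Dcn* values was not tested. *Dcn* and *Nid1* made the 2 of 46 genes (4.35%) in which every thalamic library lay above every cortical one, a pattern of 1.67% of all genes tested. For *Dcn* this rests on the 1 count in dLG c, which is under the floor of 3 counts.

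The other genes called higher in the thalamus differed by less. The laminin α2 chain gene *Lama2* had levels of 4.02, 5.16, 6.73, and 5.45 CPM in the cortex and a lowest, median, and highest level of 5.63, 8.88, and 11.3 CPM in the thalamus, so that the groups overlapped. Its log2FC was 0.70 ± 0.21 (adjusted p = 0.0442). It was not called without Cortex a, b, or d, with an adjusted p of 0.181, 0.135, and 0.11. *Col5a1*, a chain of the type V collagen that starts collagen fibrils, had levels of 5.36, 8.26, 10.7, and 6.90 CPM in the cortex and 9.00, 13.5, and 40.6 CPM as lowest, median, and highest in the thalamus. The groups overlapped through Cortex c, and the log2FC was 1.10 ± 0.38 (adjusted p = 0.0842). It was lost under 10 of 26 settings, among them the fits without Cortex a, b, or d, dLG e, or MGv a or d, with an adjusted p between 0.107 and 0.247 in those 6.

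The hyaluronan matrix held 2 of the 6 genes higher in the cortex. *Hapln1* (chr13:89539796-89611652) encodes the link protein that fastens lecticans to hyaluronan. Its levels were 118, 125, 114, and 125 CPM in the cortex, and in the thalamus 4.08, 15.2, and 53.6 CPM were the lowest, median, and highest. Every cortical library lay above every thalamic one, with a log2FC of -2.44 ± 0.44 (adjusted p = 0.00104). *Has2*, a hyaluronan synthase, had levels of 23.9, 20.9, 31.0, and 30.5 CPM in the cortex and a lowest, median, and highest level of 4.78, 11.3, and 22.7 CPM in the thalamus. The highest thalamic libraries, of the MGv, reached the lowest cortical ones, and the log2FC was -1.09 ± 0.30 (adjusted p = 0.0293), which rose to 0.119 and 0.144 without Cortex c or d. The other 6 tested genes of this group were not called, among them aggrecan (*Acan*) with a log2FC of -0.94 ± 0.40 (adjusted p = 0.179).

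Proteases gave the other pair with separate groups. *Htra1* (chr7:130936111-130985660), the gene of the second stretch above, had levels of 1545, 1796, 1630.5, and 1426 CPM in the cortex and 205, 379, and 1071 CPM as lowest, median, and highest in the thalamus. All cortical libraries lay above all thalamic ones, with a log2FC of -1.67 ± 0.34 (adjusted p = 0.00291). *Adamts5* (chr16:85856173-85901828), a protease that cleaves aggrecan and other lecticans, had levels of 24.9, 16.4, 19.8, and 16.1 CPM in the cortex and 6.75, 8.16, and 14.9 CPM as lowest, median, and highest in the thalamus. These groups did not overlap either, and the log2FC was -1.06 ± 0.21 (adjusted p = 0.00219). With *Hapln1* these made 3 of 46 genes (6.52%) with all cortical libraries above all thalamic ones, against 3.09% of all genes. The TIMPs (*Timp2*, *Timp3*, and *Timp4*), the membrane metalloproteinases (*Mmp14* and *Mmp15*), and *Adamts1* and *Adamts4* had a log2FC between -0.28 and 0.26 and were not called. *Syn3* on the opposite strand overlaps 21.28% of the exonic length of *Timp3*.

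*Col1a2*, a chain of type I collagen, was the last of the genes higher in the cortex. Its levels were 16.4, 26.1, 22.2, and 29.1 CPM in the cortex, and 8.77, 12.8, and 21.1 CPM were the lowest, median, and highest in the thalamus. The groups overlapped, with a log2FC of -0.82 ± 0.22 (adjusted p = 0.0215), and it was not called without Cortex d (adjusted p = 0.151). The other chain of that collagen, *Col1a1*, lay between 1.48 and 1.86 CPM in the cortex and between 0.101 and 1.64 CPM in the thalamus and was not called (adjusted p = 0.463), nor were *Col3a1*, *Col6a1*, *Col11a1*, and *Col16a1*, with a log2FC between 0.09 and 0.60. The 6 fibronectin and elastic fibre genes had an adjusted p between 0.142 and 0.977, among them *Fbln2* with a log2FC of -1.44 ± 0.62 and *Lox* with -2.15 ± 0.85. *Pdgfrb*, a pericyte marker, was lower in the thalamus, as *Col1a2* was. It lay between 25.7 and 52.0 CPM in the cortex and between 0.842 and 9.44 CPM in the thalamus, and its part in the *Col1a2* values was not tested. Of the 7 tested markers of pericytes and smooth muscle cells, 3 had a positive and 4 a negative log2FC. The summed level of the 8 markers of pericytes and smooth muscle cells, of which *Pdgfrb* was the 1 called lower in the thalamus, ranged from 70.4 to 109 CPM in the cortex, 34.4 to 103 CPM in the dLG, 19.3 to 36.9 CPM in the VPM, and 56.1 to 155 CPM in the MGv.

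The libraries carry numbers of 3 series in their labels, and the series of 10 and of 6 libraries both hold cortical libraries, while dLG c is alone in its series. What these numbers stand for is not stated. Among the 8 thalamic and 2 cortical libraries of the larger series, *Nid1*, *Dcn*, *Hapln1*, *Adamts5*, and *Nid2* were called of the 46. Among the 4 thalamic and 2 cortical libraries of the smaller series, *Nid1*, *Hapln1*, *Adamts5*, and *Bgn* were called, the last with a cortical mean of 19.9 CPM and a thalamic mean of 4.41 CPM. *Htra1* had a log2FC of -1.55 (adjusted p = 0.101) in the larger and -1.75 (adjusted p = 0.19) in the smaller series.

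**Figure D2:**
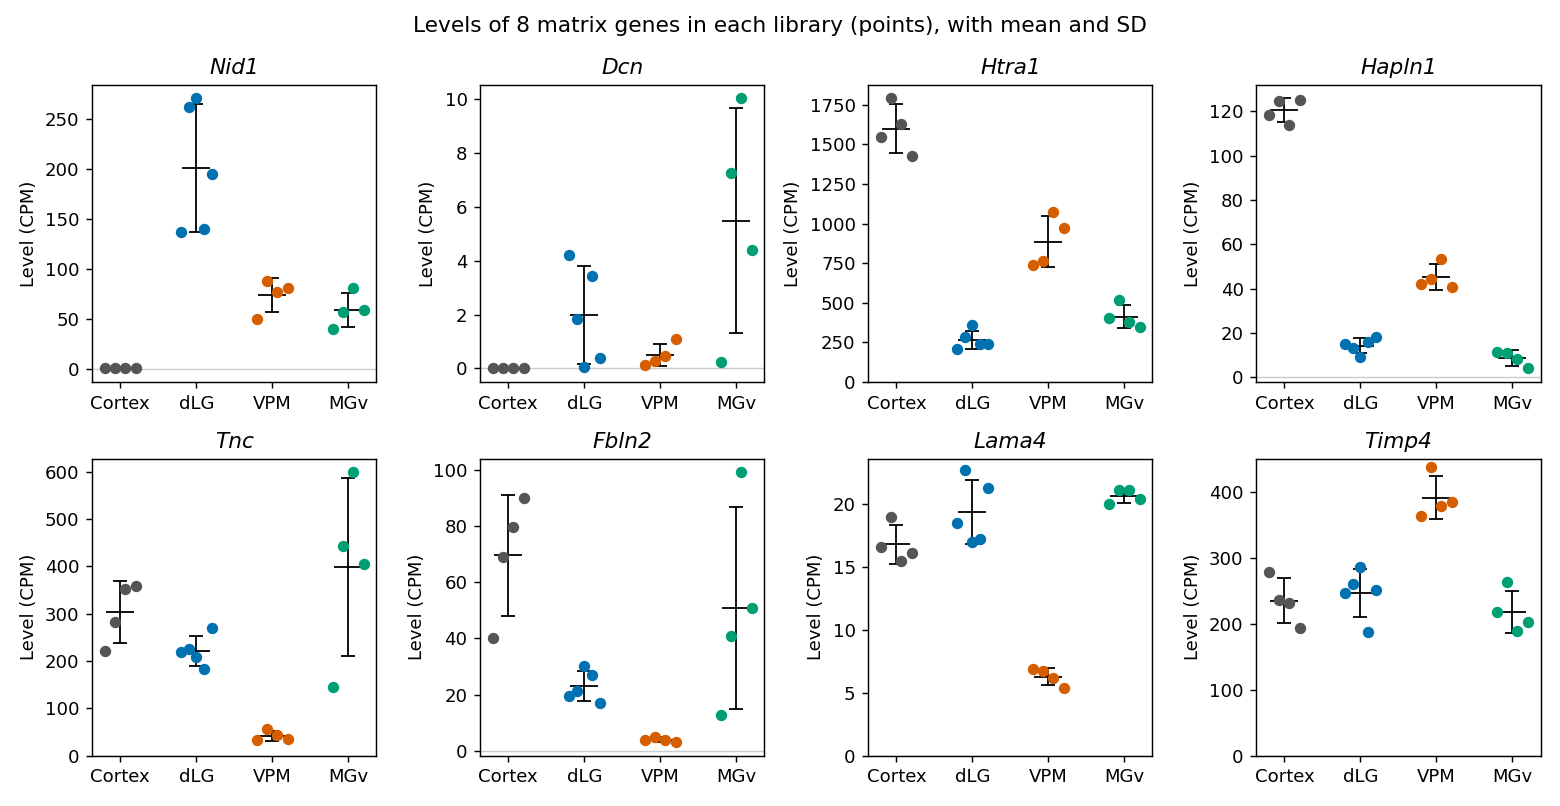
Levels in CPM (linear axes from 0) of 8 matrix genes in each of the 17 libraries by group, with the mean and standard deviation (SD) as bars. *Nid1* is near 0 in the cortex and highest in the dLG, *Htra1* and *Hapln1* are highest in the cortex and next in the VPM, and *Tnc*, *Fbln2*, and *Lama4* are lowest in the VPM.

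To ask whether the 3 sensory nuclei differ in their matrix genes, each was set against the average of the other pair within the 13 thalamic libraries, in a fit that tested 45 of the 48 genes (not *Hapln2*, *Lum*, and *Col3a1*) and 17319 genes in all. These 3 comparisons share libraries, and their values are given side by side.

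The VPM was the nucleus with the most differences. In it, 19 of 45 genes (42.2%) were lower and 5 (11.1%) were higher, against 9.78% and 7.07% of all genes tested. Since these genes were chosen with earlier results of these data known, their shares are not those of an independent list. Among the other matrix genes described below, 14.5% were lower and 9.40% higher. The median log2FC of the 45 was -0.59 and that of all genes was -0.02, and 37 of the 45 had a negative value. The genes lower in the VPM were 5 of 7 laminin chains, 5 of 7 other basement membrane genes, 3 of 8 tested genes of the hyaluronan and lectican matrix, both tested small leucine-rich proteoglycans, 2 of 6 tested collagens, 1 of 6 elastic fibre genes, and 1 of 9 proteases and inhibitors. All 14 basement membrane genes, laminins included, had a negative log2FC, and 10 of them were called. The count of 19 came to 9 without VPM a, 9 without VPM c, and 11 without VPM d.

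*Tnc* (chr4:63959785-64047015, minus strand) encodes tenascin C, a large matrix glycoprotein of immature and reactive glia, and its upstream stretch is the third above. In the VPM its levels were 32.8, 55.8, 42.6, and 35.5 CPM. They were 218, 226, 208, 183, and 269 CPM in the dLG, 145, 444, 599, and 405 CPM in the MGv, and 221, 283, 353, and 357 CPM in the cortex. No VPM library reached any library of another group, and the log2FC in the VPM was -2.86 ± 0.31 (adjusted p = 1.6e-04). Among 45 genes, 5 (11.1%) had all VPM libraries below all those of the other nuclei, *Tnc*, *Lama4*, *Fbln2*, *Lama1*, and *Col16a1*, against 2.62% of all genes.

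Of the 7 laminin chains, 5 were called lower in the VPM. *Lama4* (chr10:38965515-39110188), the α4 chain of vessel basement membranes, had levels of 6.88, 6.75, 6.15, and 5.37 CPM in the VPM against 18.5, 22.7, 16.95, 17.3, and 21.3 CPM in the dLG and 20.002, 21.1, 21.1, and 20.4 CPM in the MGv. The VPM libraries lay apart from all others, and the log2FC was -1.70 ± 0.16 (adjusted p = 4.5e-05). *Lama1* had a log2FC of -2.11 ± 0.47 (adjusted p = 0.0161) and *Lama5* of -1.85 ± 0.57 (adjusted p = 0.0552), both at mean levels under 6 CPM in every nucleus. *Lamb2* had levels of 31.2, 53.0, 51.9, and 49.9 CPM in the VPM, 65.5, 71.3, 95.3, 66.7, and 61.9 CPM in the dLG, and 48.2, 71.8, 105, and 73.3 CPM in the MGv. MGv a lay within the range of the VPM, and the log2FC was -0.69 ± 0.20 (adjusted p = 0.0436). *Lamc1*, the γ1 chain shared by most laminins, had a log2FC of -0.54 ± 0.15 (adjusted p = 0.0402), while *Lama2* and *Lamb1* were not called (adjusted p = 0.458 and 0.68).

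**Figure D3:**
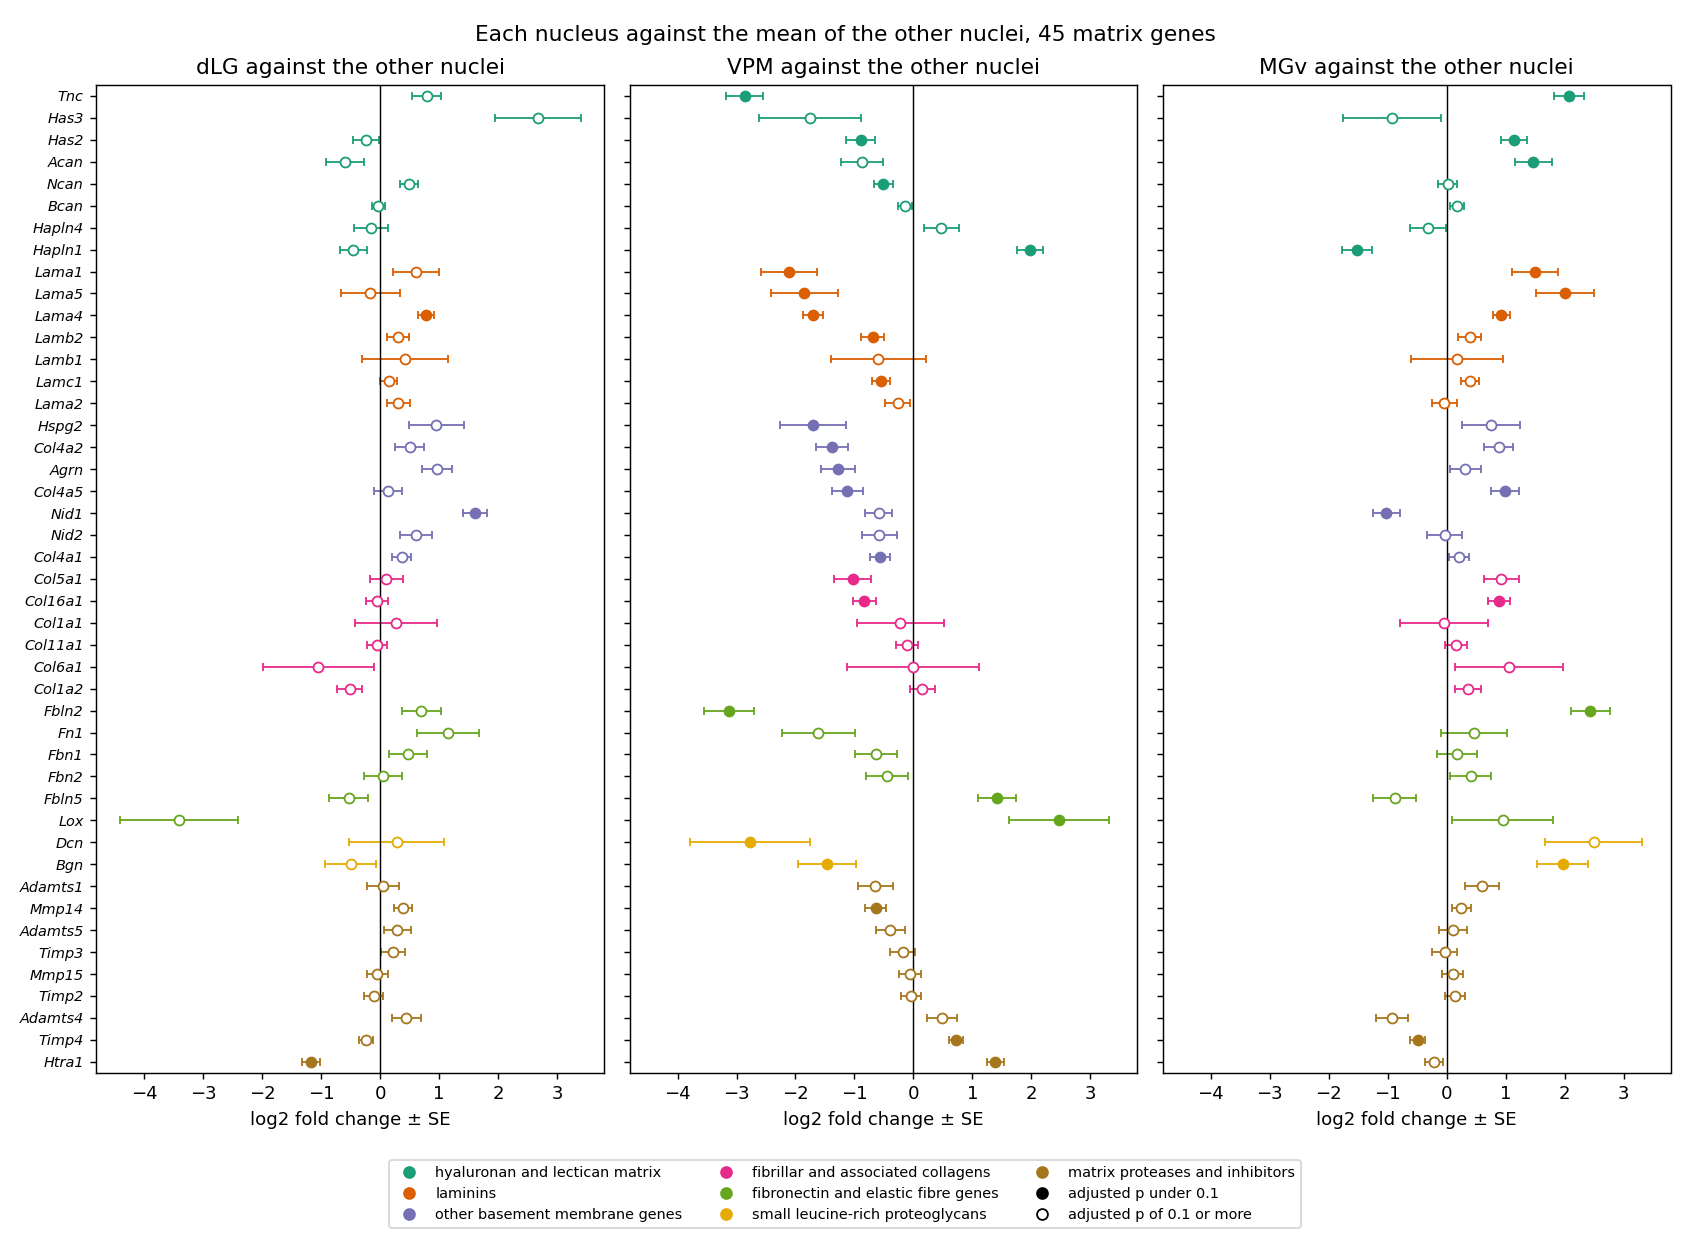
Log2 fold change of each nucleus over the mean of the other nuclei with its SE, for the 45 matrix genes tested, in 3 panels with the genes in the same order. In the VPM panel 37 of 45 points lie below 0 and 24 are filled (adjusted p under 0.1), against 3 in the dLG panel and 13 in the MGv panel.

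Type IV collagen, the network former of basement membranes, was lower in the VPM in all 3 chains listed. *Col4a2* had levels of 5.25, 5.91, 8.71, and 6.75 CPM in the VPM, 21.1, 12.4, 20.5, 8.21, and 15.2 CPM in the dLG, and 23.1, 16.3, 12.3, and 22.1 CPM in the MGv. VPM c overlapped dLG d, and the log2FC was -1.38 ± 0.27 (adjusted p = 0.00977). *Col4a1*, which lies beside *Col4a2* head to head on chromosome 8, had a log2FC of -0.57 ± 0.17 (adjusted p = 0.0482) and *Col4a5* of -1.12 ± 0.26 (adjusted p = 0.0194). *Agrn* had levels of 118, 189, 156, and 116 CPM in the VPM, 271, 407, 565, 169, and 581 CPM in the dLG, and 228, 383, 281, and 290 CPM in the MGv. Its groups overlapped through VPM b and dLG d, with a log2FC of -1.28 ± 0.29 (adjusted p = 0.0165). Perlecan (*Hspg2*), a large heparan sulfate proteoglycan, had a log2FC of -1.70 ± 0.55 (adjusted p = 0.0642), and the nidogens were not called in the VPM (adjusted p = 0.109 for *Nid1* and 0.237 for *Nid2*).

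*Fbln2* (chr6:91212455-91272540), an elastic fibre and basement membrane glycoprotein, had the lowest log2FC of the 45 genes in the VPM. Its levels were 3.92, 5.02, 3.95, and 3.05 CPM in the VPM, 19.4, 21.2, 30.1, 27.0, and 17.1 CPM in the dLG, 12.9, 40.8, 99.2, and 50.6 CPM in the MGv, and 40.0, 69.1, 79.7, and 89.9 CPM in the cortex. The VPM libraries lay below all others, although the MGv spread over a wide range, and the log2FC was -3.13 ± 0.42 (adjusted p = 0.00113). *Bgn* had levels of 3.44, 4.46, 7.25, and 3.60 CPM in the VPM, 7.25, 4.25, 14.5, 4.28, and 5.45 CPM in the dLG, and 4.76, 22.5, 43.9, and 17.7 CPM in the MGv. Its groups overlapped, with a log2FC of -1.46 ± 0.49 (adjusted p = 0.0711), and that of *Dcn* was -2.77 ± 1.02 (adjusted p = 0.097). *Col16a1*, a fibril-associated collagen, had levels of 42.2, 47.8, 50.8, and 43.4 CPM in the VPM, 59.4, 56.4, 74.2, 52.4, and 79.7 CPM in the dLG, and 57.1, 135, 120, and 84.6 CPM in the MGv. The VPM lay below both other nuclei, by a narrow margin to dLG d, with a log2FC of -0.83 ± 0.20 (adjusted p = 0.0219). The remaining genes called lower in the VPM were *Has2*, *Ncan*, *Col5a1*, and *Mmp14*, a membrane metalloproteinase, with a log2FC between -1.03 and -0.51.

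In the VPM 5 genes were higher, and 4 of them (8.89% of 45, against 4.05% of all genes) had all VPM libraries above all of the other nuclei. *Htra1* had levels of 740, 762, 1071, and 970 CPM in the VPM, 205, 284, 357, 241, and 240 CPM in the dLG, and 406, 514, 379, and 349 CPM in the MGv. The VPM libraries were thus between the other nuclei and the cortex, and the log2FC was 1.39 ± 0.15 (adjusted p = 1.6e-04). *Hapln1* had the same order, with 42.4, 44.5, 53.6, and 40.9 CPM in the VPM, 15.2, 13.2, 9.44, 15.8, and 18.3 CPM in the dLG, and 11.5, 10.98, 8.45, and 4.08 CPM in the MGv. The groups were apart, with a log2FC of 1.98 ± 0.23 (adjusted p = 2.8e-04). *Timp4* (chr6:115241892-115252205), a TIMP rich in brain, had levels of 364, 438, 379, and 385 CPM in the VPM, 248, 261, 286, 188, and 251 CPM in the dLG, and 219, 263, 190, and 203 CPM in the MGv. Its libraries in the VPM were above those of the other nuclei and of the cortex, where the highest was 279 CPM, and the log2FC was 0.72 ± 0.12 (adjusted p = 0.00391).

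*Fbln5*, which guides the assembly of elastic fibres, had levels of 12.7, 12.7, 20.01, and 12.46 CPM in the VPM, 7.02, 7.79, 3.16, 8.80, and 1.97 CPM in the dLG, and 4.95, 2.90, 5.65, and 5.93 CPM in the MGv. The VPM was above both, with VPM c higher than the other libraries, and the log2FC was 1.42 ± 0.33 (adjusted p = 0.0183). *Lox*, the lysyl oxidase that crosslinks collagen and elastin, had levels of 4.20, 0.669, 1.35, and 3.69 CPM in the VPM, 0.561, 0.202, and 3 times 0 CPM in the dLG, and 2.26, 0.880, 0.285, and 1.36 CPM in the MGv. Its groups overlapped (log2FC 2.47 ± 0.84, adjusted p = 0.076). Fibronectin (*Fn1*) and the fibrillins (*Fbn1* and *Fbn2*) were not called, and *Gm9913* on the opposite strand overlaps 20.14% of the exonic length of *Fbn1*.

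Markers of other cells moved with the VPM too. All 6 oligodendrocyte markers were called higher there, with a summed level between 1985 and 5734 CPM against 1498 to 3306 CPM in the dLG and 1285 to 2216 CPM in the MGv. All 6 microglia markers were called lower, with a summed level between 6.68 and 11.2 CPM against 10.9 to 91.8 CPM in the dLG and 11.8 to 54.5 CPM in the MGv. Of 10 astrocyte markers, *Gja1* and *S100b* were higher in the VPM (log2FC 0.63 and 0.60), *Gfap* and *Sox9* were lower (log2FC -6.37 and -0.92), and the other 6 were not called. Of the oligodendrocyte precursor markers, *Pdgfra* and *Cspg4* were lower in the VPM and the other 4 were not called. The pericyte marker list had 1 gene called lower, *Notch3*, and the endothelial markers had a summed level between 6.86 and 20.4 CPM in the VPM, 6.93 and 63.8 CPM in the dLG, and 6.83 and 29.4 CPM in the MGv. The summed fibroblast markers, given above with *Dcn*, were higher in every VPM library than in any of the other nuclei, and most of the sum was *Slc13a3*. Of the 5 tested markers of that list, 2 were called higher in the VPM and the other 3 were not called. Of 11 neuronal markers, 2 were called higher and 1 lower, and of 3 tested markers of choroid plexus and ependymal cells 1 was called lower. The part of any of these in the matrix values was not tested.

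**Figure D4:**
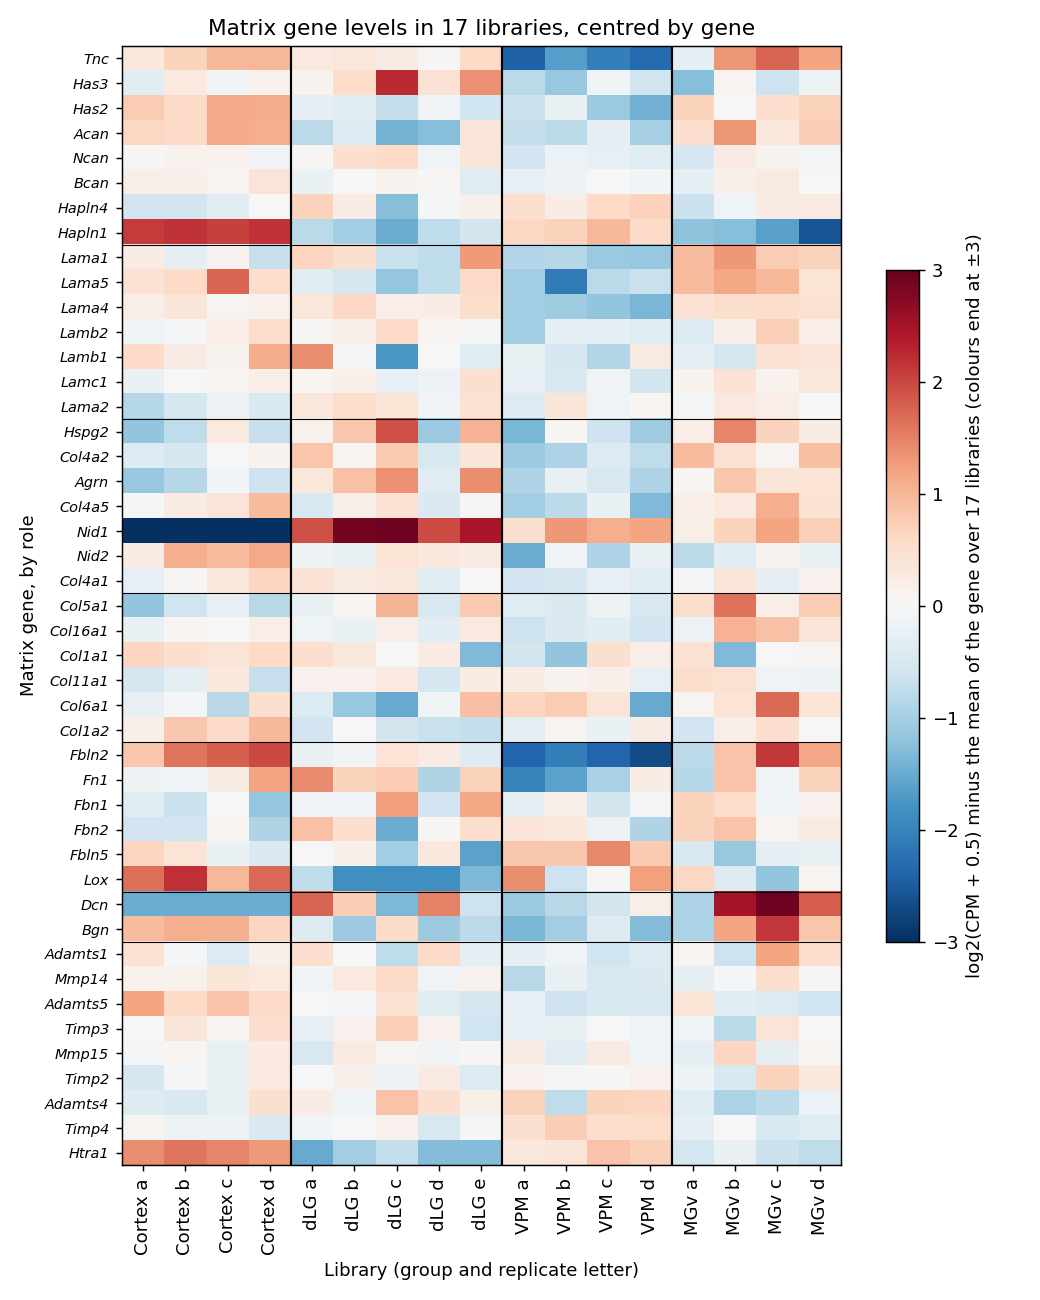
Levels as log2(CPM + 0.5) minus the mean of each gene over the 17 libraries, for 45 matrix genes (rows, in groups by role) and the libraries by group (columns), with colours ending at ±3. *Nid1* is blue in the cortex, *Hapln1* and *Htra1* are red there, and *Tnc* and *Fbln2* are blue in the VPM.

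The comparisons of the MGv and of the VPM share libraries, and the average set against the MGv holds the low or high VPM values. Of the genes called higher in the MGv, all but *Acan* were also called lower in the VPM. Of those called lower in the MGv, all but *Nid1* were also called higher in the VPM. In the MGv 10 of 45 genes (22.2%) were higher and 3 (6.67%) were lower, against 1.57% and 0.756% of all genes. The median log2FC of the 45 was 0.32 and that of all genes 0.02. The count of 10 came to 5 without MGv b, 5 without MGv c, and 4 when the series of the library numbers was a covariate, and all MGv libraries are of 1 series. The genes higher in the MGv were *Tnc*, *Acan*, and *Has2* of the hyaluronan matrix, the laminin chains *Lama1*, *Lama4*, and *Lama5*, and *Col4a5*, *Col16a1*, *Fbln2*, and *Bgn*. Markers of other cells that were called in the MGv were *Slc13a3* and *Foxd1* of the fibroblast list, both lower (log2FC -0.76 and -4.69), the pericyte marker *Notch3*, higher (log2FC 1.17), the neuronal *Nefm* and *Slc17a7*, both lower, and *Folr1* of the choroid plexus list, higher, and of the astrocyte list *Gfap* was higher (log2FC 4.55). The part of any of these in the MGv values was not tested.

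For *Tnc* the log2FC in the MGv was 2.07 ± 0.25 (adjusted p = 3.6e-04), and MGv a, with 145 CPM, was below every dLG library while the other 3 MGv libraries were above them. *Fbln2* had a log2FC of 2.44 ± 0.33 (adjusted p = 0.00171), with MGv a again below the dLG and MGv c highest of all libraries at 99.2 CPM. *Lama4* had levels within 20.002 and 21.1 CPM in the MGv, inside the range of the dLG, and its log2FC was 0.92 ± 0.14 (adjusted p = 0.00347), with the VPM libraries far below both. *Has2* had levels of 22.3, 13.9, 19.8, and 22.7 CPM in the MGv, 11.3, 10.7, 8.26, 12.8, and 8.93 CPM in the dLG, and 8.69, 11.8, 6.15, and 4.78 CPM in the VPM. All MGv libraries lay above the others, with a log2FC of 1.14 ± 0.23 (adjusted p = 0.0185). *Acan*, a lectican of perineuronal nets, had mean levels of 16.3 ± 5.52 CPM (SD, n = 4) in the MGv, 6.26 ± 3.70 CPM (n = 5) in the dLG, and 5.66 ± 1.34 CPM (n = 4) in the VPM, and a log2FC of 1.47 ± 0.32 (adjusted p = 0.0328).

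The genes lower in the MGv were *Hapln1*, *Nid1*, and *Timp4*. The log2FC of *Hapln1* was -1.52 ± 0.26 (adjusted p = 0.00672), with MGv and dLG libraries overlapping. *Nid1* had levels of 40.2, 56.4, 81.2, and 58.4 CPM in the MGv and 50.1, 88.0, 76.4, and 80.9 CPM in the VPM, which overlapped. Its log2FC was -1.02 ± 0.23 (adjusted p = 0.0427), and it was not called without MGv a, b, or d (adjusted p = 0.108, 0.124, and 0.119). *Timp4* (log2FC -0.49 ± 0.13, adjusted p = 0.0783) was not called under 11 of 20 settings. Among these were the fits without dLG a or b, MGv a, c, or d, and VPM a, c, or d, with an adjusted p between 0.108 and 0.23. *Gfap* ranged from 36.1 to 5519 CPM among the MGv libraries, and its part in the spread of *Tnc* and *Fbln2* was not tested.

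In the dLG, 2 of 45 genes (4.44%) were higher and 1 (2.22%) was lower, against 0.941% and 0.214% of all genes. *Nid1* had levels of 137, 262, 270, 140, and 195 CPM in the dLG, and every one was above the 88.0 CPM that is the highest of the other nuclei. Its log2FC was 1.62 ± 0.20 (adjusted p = 7.0e-04), so that the order of the groups in this gene was dLG, then VPM and MGv, which overlapped, then cortex. *Lama4* was higher (log2FC 0.78 ± 0.14, adjusted p = 0.0138) than an average that holds the low VPM libraries. Its mean was 19.3 CPM in the dLG, 20.7 CPM in the MGv, and 6.29 CPM in the VPM, with the MGv libraries inside the range of the dLG. *Htra1* was lower (log2FC -1.18 ± 0.15, adjusted p = 8.9e-04), with dLG c the 1 library above an MGv library. The count of 2 higher came to 5 without dLG d, and the count of 1 lower came to 2 without dLG a. Over the 3 nuclei 26 of the 45 genes were called at least once, and the other 19, among them *Bcan*, *Lama2*, *Nid2*, *Col1a2*, *Fn1*, *Adamts5*, *Hapln4*, *Has3*, *Timp2*, and *Timp3*, had an adjusted p of 0.109 or more.

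Set against the cortex one at a time in a fit of 4 groups, the nuclei shared the 4 cortical libraries, so that the 3 results are not independent. In the dLG 18 of 46 genes (39.1%) differed from the cortex, 7 higher and 11 lower, against 19.4% of all genes. In the VPM 17 (37.0%) differed, 3 higher and 14 lower, against 9.00%, and in the MGv 10 (21.7%) differed, 6 higher and 4 lower, against 15.4%. For *Htra1* the log2FC against the cortex was -2.59 ± 0.17 for the dLG, -0.85 ± 0.17 for the VPM, and -1.96 ± 0.18 for the MGv, all called. For *Agrn* it was 1.48 ± 0.30 in the dLG and 1.05 ± 0.31 in the MGv, both called (adjusted p = 0.0032 and 0.0384), and the mean in the VPM, 145 CPM, was close to the 143 CPM of the cortex. For *Tnc* the VPM alone was called against the cortex (log2FC -2.87 ± 0.31, adjusted p = 4.1e-06), and the dLG (-0.46 ± 0.27, adjusted p = 0.283) and the MGv (0.39 ± 0.29, adjusted p = 0.429) were not. *Timp4* was called higher than the cortex in the VPM (0.73 ± 0.14, adjusted p = 0.00266).

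Other genes of the matrix, its processing enzymes, and its receptors, 127 in the files, were read beside the 48. Between thalamus and cortex, 120 were tested, of which 11 (9.17%, against 5.45% of all genes) were higher in the thalamus and 22 (18.3%, against 5.93%) were higher in the cortex. Those of lowest p were *Adamts2*, a procollagen protease, *Reln*, the glycoprotein reelin, *Itga9*, and *Mmp19* in the thalamus, with a log2FC between 0.96 and 3.65. In the cortex they were the latent TGF-β binding proteins *Ltbp1* and *Ltbp3*, *Col18a1*, and the hyaluronan receptor *Cd44*, with a log2FC between -4.52 and -0.65. In the VPM, 11 of 117 (9.40%, against 7.07% of all genes) were higher, led by *Col9a3*, *Matn2*, *P4ha1*, and *Sdc2*, and 17 (14.5%, against 9.78%) were lower, led by *Col23a1*, *Reln*, *Ptprs*, and *Col2a1*. Their median log2FC in the VPM was -0.28, against -0.59 for the 45 genes and -0.02 for all genes. In the MGv 7 (5.98%, against 1.57%) were higher, led by *Col23a1*, *Reln*, *Col12a1*, and *Col4a6*, and 2 (1.71%, against 0.756%) were lower, *Itga9* and *Fmod*. In the dLG 2 (1.71%, against 0.941%) were higher, *Col2a1* and *Lrp4*.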

How the data were processed

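RNA was amplified with the SMARTer Ultra Low RNA Kit v4 and sequenced single-end after NEBNext library preparation, which does not mark strand. Per the labels and the methods, the authors trimmed adapters, mapped the reads with STAR (2.7.0d) to GRCm38.p6/mm10, and assigned them to Ensembl genes by featureCounts (Subread 1.6.4), and the deposited values are raw counts per gene of each library. Whether counting used strand is not given in the sources used here. Every gene listed has at least 10 counts over the 17 libraries. Of 26556 identifiers, 26548 were matched to GENCODE names on GRCm38.

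Genes with low counts were removed with filterByExpr. Groups were compared with edgeR (4.0.16), robust quasi-likelihood, TMM, in R 4.3.3, with Benjamini-Hochberg adjustment over all genes tested. The SE was taken as |log2FC| over the root of *F*. Calls have an adjusted p under 0.1. The members, roles, and marker lists were chosen with earlier results of these data known. Values were given for the genes called, by lowest p, at most 8 a direction between regions and 4 for a nucleus, and for the highest per length in each role. Alternatives were DESeq2 (1.42.0), its size factors, no filter, an adjusted p under 0.05, a log2FC over 0.322 in size, a replicate block, the library number series, the mean of nuclei, and each library left out. The tests were tested on simulated data. Figures used Python 3.11.15 with matplotlib 3.10.9.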

Additional observations from a re-analysis of the deposited data

Results flagged for a closer look

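Among 21 matrix genes examined for a library that lies far from the others of its group, 4 of 84 groups (4.76%) held one, and chance gives about 1 in 20. *Col1a2* in dLG b had 14.8 CPM, with the next dLG library at 9.87 CPM. *Fbln5* in VPM c had 20.01 CPM, with the next VPM library at 12.7 CPM. *Lamb2* in dLG c had 95.3 CPM, with the next dLG library at 71.3 CPM, and *Lamb2* in VPM a had 31.2 CPM, the lowest of the VPM, with the next library at 49.9 CPM.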

How the results depend on the processing

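Of 266 counts of matrix genes under alternatives, 242 stayed within 1.5 times the reported count and 24 did not, and the cause was not tested. With DESeq2, the genes higher and lower in the dLG came to 6 and 2 (2 and 1 reported), and those differing between MGv and cortex to 16 (10 reported). With the mean of the nuclei in the fit of 4 groups, 12 genes were higher in the cortex (6 reported). When the series of the library numbers was a covariate, 4 were higher in the MGv (10 reported). Chosen after seeing the data, the larger series of library numbers alone gave 2 higher in the thalamus, 3 higher in the cortex, 1 in the dLG, 9 lower in the VPM, and 9 differing between dLG and cortex, and the smaller series alone gave 1 and 3 for thalamus and cortex, with fewer libraries in each fit. Without dLG a and c together, no count moved by over 1.5 times. Leaving out 1 library at a time gave between 2 and 6 genes higher in the thalamus, 2 and 5 higher and 1 and 2 lower in the dLG, 9 and 21 lower in the VPM, and 5 and 12 higher and 1 and 4 lower in the MGv. Of 24 same-letter pairs of libraries, 4 had a correlation of deviations over 0.1 (median 0.0067). Of 84 pairs with different letters, 14 did (median -0.0123). The sources do not state whether pools share brains or letters mark such pools, so these values do not settle whether regions were paired. A replicate block moved no count by over 1.5 times and left 18 lower in the VPM, 3 higher in the thalamus, and 6 higher in the cortex. Of 619 values of 28 single genes, 579 stayed called, 40 did not, and none changed sign, and 19 of the 28 were called under all settings tried. Groups of 4 and 5 pools limit what can be called, and levels under 3 counts lie under the floor chosen here.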
